A study of Mus musculus with 12 samples.

Results

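The genes of GABA synthesis, transport and GABA-B receptors comprised 7 of the 47729 genes in the deposited table: Gad1, Gad2, Slc32a1, Slc6a11, Abat, Gabbr1 and Gabbr2. They were picked by name, as the rows whose Ensembl identifier carries one of these symbols in GENCODE M21, and all 7 were found and passed the filter on low counts. The mRNA came from bilateral amygdala of age-matched female C57/BL6 mice, an inbred laboratory strain, with 1 library per mouse and no treatment or mutation in any of them. Before tissue was taken, each mouse met the elevated plus maze (EPM) at 9 weeks of age, the light/dark box (LD) at 10 weeks and, at 11 weeks, a social interaction test (SIT) with a stranger mouse. The study named 3 mice “less anxious” (mice 3, 7 and 12), 4 “anxious” (mice 1, 4, 8 and 11) and 4 “more anxious” (mice 2, 6, 9 and 10). These names are tertiles of the second principal component (PC2) of the same expression data, so a comparison between them is not independent of expression. The behavior measures themselves were not made from expression. They do not always follow the names of the groups. Mouse 6, named more anxious, had the largest share of time in the light (46.6%) and of open-arm time (29.2%) of the 11 mice. Mouse 5 carries no group and enters none of the comparisons between groups.

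GABA is the main inhibitory transmitter of the brain. It is made from glutamate by glutamate decarboxylase, packed into vesicles, cleared by transporters on neurons and astrocytes, and broken down by a transaminase in mitochondria. Released GABA acts on ion channels of the GABA-A type and on the GABA-B receptor, a pair of G-protein-coupled subunits that damps release and excitability through potassium and calcium channels. In the amygdala, inhibition by local interneurons and by the GABAergic projection neurons of the central nucleus is known to gate fear and avoidance. A piece of whole tissue holds all of these cells, so fewer cells of a type and less mRNA per cell cannot be told apart.

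Values are counts per 1000000 (CPM), estimated counts divided by the library total after TMM scaling, which sets libraries to a common scale. The 11 mice with a group had totals of 31745630 to 45142355 estimated counts, and at the member levels below counting error was small beside the spread between mice. Summed levels of the marker lists differed between the libraries, and whether the mix of tissue differed was not tested. Summed markers of striatal-type and central amygdala projection neurons ran from 667 CPM in mouse 11 to 1377 CPM in mouse 7 and 1692 CPM in mouse 12, and summed pituitary markers reached 57.6 CPM in mouse 4 and 17.9 CPM in mouse 11 against at most 6.41 CPM elsewhere. Markers of amygdala neurons were present, with a mean of 13.6 CPM for Prkcd of the central nucleus and 12.0 CPM for Rspo2 of the basolateral nuclei.

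The DNA upstream of the RefSeq start of the genes for synthesis and packaging, which share their cells, is shown for 3 members on the same chromosome and strand. The stretches come from the RefSeq promoter table on GRCm38.p6, read 5′ to 3′ in the direction of the gene, and end before any exon of the gene that GENCODE M21 places in the window. For Gad1 and Gad2 the RefSeq start lies downstream of the gene start in GENCODE M21, and the printed stretch stops short of the RefSeq start. The Gad1 stretch falls inside the annotated gene, between a first exon of a transcript and the next exon. Capitals mark a match to TATAAA, read on either strand.

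Gad1 chr2:70561879-70562041 (+): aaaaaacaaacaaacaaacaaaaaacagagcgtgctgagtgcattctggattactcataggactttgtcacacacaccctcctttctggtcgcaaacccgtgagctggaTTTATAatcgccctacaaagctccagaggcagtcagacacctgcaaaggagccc
Gad2 chr2:22622077-22622204 (+): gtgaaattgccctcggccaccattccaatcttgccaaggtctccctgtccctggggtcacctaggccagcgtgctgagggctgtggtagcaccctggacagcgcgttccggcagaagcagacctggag
Slc32a1 chr2:158610508-158610757 (+): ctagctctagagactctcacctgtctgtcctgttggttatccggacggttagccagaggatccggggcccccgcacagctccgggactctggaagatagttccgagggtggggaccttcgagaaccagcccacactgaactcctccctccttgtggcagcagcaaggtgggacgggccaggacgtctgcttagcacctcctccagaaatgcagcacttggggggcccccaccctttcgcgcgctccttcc

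Short motifs were searched on both strands in the 250 bases before the RefSeq start. The homeodomain core was TAATTA, and a TATA box was the string given above. The cAMP response element was TGACGTCA. The GC box was GGGCGG, and no match overlapped another in the members. Gad1 held the TATAAA string on the reverse strand, 136 bases before its start. It also held the GC box within 3 bases of its start, where the printed stretch no longer reaches. Whether any match works as a site was not tested. The windows of Gad2 and Slc32a1 held none of the motifs. The GC box occurred 3 times in Slc6a11 and 2 times each in Gabbr1 and Gabbr2. Among the 27025 promoters of the table, 4.90% held the homeodomain core, 13.0% the TATA box, 1.62% the cAMP response element and 32.9% the GC box. CpG dinucleotides numbered 37 in Gabbr2, 25 in Slc6a11, 17 in Gad1, 16 in Gabbr1, 13 in Gad2 and 12 in Slc32a1, all above the median of 6 for these promoters. The table matched 6 of the 7 members, and Abat had no entry.

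Levels between genes were compared only per length, as CPM per kb of the exons of a gene joined together. Gabbr1, the subunit that binds GABA, stood highest at 86.7 ± 13.8 CPM per kb (SD, n = 11). Its partner Gabbr2, which couples to the G protein, followed at 48.1 ± 3.77 CPM per kb, and the ranges of the pair did not overlap. Gad1 had 44.5 ± 5.71, Abat 34.9 ± 3.98, Gad2 34.5 ± 8.36, Slc32a1 34.2 ± 7.60 and Slc6a11 31.7 ± 5.05 CPM per kb. From Gabbr2 down, the ranges of each pair of neighbours in this order overlapped, although Gad1 was above Abat in 11 of 11 mice. The order rests on the length used, since with the longest protein-coding transcript Gad1 had 101 CPM per kb and stood next to Gabbr1 at 128, ahead of Abat at 58.3 and Gabbr2 at 55.9.

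The members differed in how much they varied among these near-identical animals. The coefficient of variation (SD over mean, in CPM over 11 mice) was 24.2% for Gad2 and 22.3% for Slc32a1. Among the 4230 genes with a mean of 50 to 1000 CPM the median was 10.99%, and these values stood at percentiles 95.1 and 93.4. Slc6a11 and Gabbr1 each had 15.9%, Gad1 12.8% and Abat 11.4%. Gabbr2 was the steadiest member at 7.84%, percentile 19.3, with only a 1.27-fold span between its lowest and highest mouse against 1.99-fold for Gad2.

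**Figure D1:**
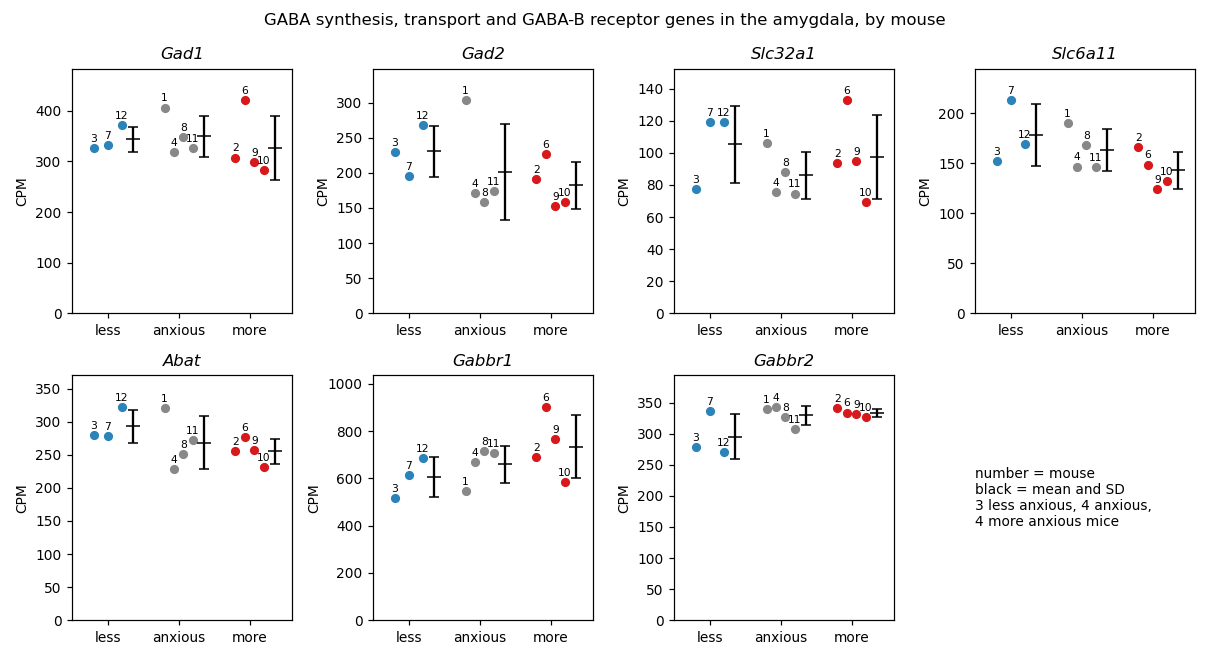
Level of each member in CPM for each of the 11 mice (points, with the mouse number), by anxiety group, with bars for the mean and SD of 3, 4 and 4 mice. Gad2 reached 303 CPM in mouse 1 and 152.5 CPM in mouse 9, and Abat is the member whose less anxious and more anxious points do not overlap.

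Gad1 encodes GAD67, the decarboxylase that makes most of the GABA in neurons (chromosome 2, 70553072 to 70602014, plus strand, GRCm38). Its level was 327, 332 and 372 CPM in less anxious mice 3, 7 and 12, then 407, 318, 348 and 326 CPM in anxious mice 1, 4, 8 and 11, and 308, 420.5, 299 and 282 CPM in more anxious mice 2, 6, 9 and 10. The groups overlapped, and the highest and lowest of all mice, 6 and 10, were both more anxious. The means were 343 ± 25.0, 349.5 ± 40.1 and 327 ± 63.0 CPM. An antisense gene, Gad1os, overlaps Gad1, and whether the counting used the strand is not given in the sources used here.

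Gad2 encodes GAD65, the form tied to synaptic terminals (chromosome 2, 22622205 to 22693874, plus strand). It had 230.0, 195 and 268 CPM in the less anxious mice, 303, 171, 158 and 174 CPM in the anxious mice and 191, 226, 152.5 and 158 CPM in the more anxious mice, in the same order of mice. Mouse 1 was far above the other anxious mice, and the groups overlapped. The means went from 231 ± 36.3 through 201 ± 68.0 to 182 ± 34.0 CPM.

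Slc32a1 encodes the vesicular GABA transporter, which loads GABA and glycine into synaptic vesicles (chromosome 2, 158610767 to 158615748, plus strand, with Gm14205 on the other strand). The less anxious mice had 77.4, 119 and 119 CPM, the anxious mice 106, 75.7, 88.1 and 74.6 CPM and the more anxious mice 93.6, 133, 95.1 and 69.2 CPM. The highest mouse was again mouse 6 and the lowest again mouse 10, both more anxious. The means of 105 ± 24.1, 86.1 ± 14.7 and 97.6 ± 26.2 CPM had no order from less to more anxious.

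Slc6a11 encodes GAT-3, the GABA transporter of astrocytes (chromosome 6, 114131241 to 114249952, plus strand). It had 153, 213 and 169 CPM in the less anxious mice, 191, 147, 168 and 147 CPM in the anxious mice and 167, 149, 125 and 132 CPM in the more anxious mice. Mouse 7 was the highest and mice 9 and 10 the lowest, while mouse 3, less anxious, lay below mouse 2, more anxious. The means were 178 ± 31.2, 163 ± 21.02 and 143 ± 18.6 CPM.

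Abat encodes GABA transaminase, which starts the breakdown of GABA (chromosome 16, 8513429 to 8621568, plus strand). Its values were 279, 278 and 322 CPM in the less anxious mice, 321, 228, 251 and 273 CPM in the anxious mice and 256, 276, 257 and 231 CPM in the more anxious mice. All 4 more anxious mice lay below all 3 less anxious mice, but by a gap of only 1.53 CPM between mouse 6 and mouse 7. Of the 15891 genes with a mean of at least 1 CPM, 10.0% did not overlap between these groups and 4.75% lay lower in the more anxious mice, so 1 such gene in 7 is not a result about the members. With DESeq2 size factors, a different scaling, the gap became an overlap of -0.154 CPM. The means were 293 ± 24.9, 268 ± 39.8 and 255 ± 18.5 CPM.

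Gabbr1 (chromosome 17, 37045966 to 37075067, plus strand) had 518, 616 and 687 CPM in the less anxious mice, 548, 668, 718 and 707 CPM in the anxious mice and 689, 901, 765 and 585 CPM in the more anxious mice. Mouse 6 was the highest, mouse 3 the lowest, and the groups overlapped. Gabbr2 (chromosome 4, 46662305 to 46991873, minus strand) had 279, 337 and 270.0 CPM in the less anxious mice, 340.4, 343, 327 and 308 CPM in the anxious mice and 341, 334, 332 and 327 CPM in the more anxious mice. The lowest 2 values belonged to mice 12 and 3, both less anxious, while mouse 7 of that group lay among the highest. The means, in the same order of groups, were 607 ± 85.0, 660.2 ± 77.8 and 735 ± 133 CPM for Gabbr1 and 295 ± 36.2, 329.5 ± 15.8 and 334 ± 5.94 CPM for Gabbr2.

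The group comparison asked which genes differ across the anxiety states, with a PC1 score as a covariate after the design of the study. That score came from a principal component analysis made here (19.9% of the variance for PC1 and 14.6% for PC2), not from the study. The PC2 made here did not split the mice exactly as the groups do, since more anxious mouse 6 scored 0.324, above anxious mice 1 at -4.92 and 11 at -2.98. No member was called by edgeR's quasi-likelihood test at a Benjamini-Hochberg adjusted p under 0.05, against 0.00742% of the 26963 genes tested (2 genes) for any difference among the groups and 0.0445% (12 genes) for more against less anxious. DESeq2 called none of the members either, while it called 0.539% (186) and 0.881% (304) of 34511 genes. At an unadjusted p under 0.05, the edgeR test of any difference held 1 member, Slc6a11, beside 6.35% of all genes. The same member passed that mark for more against less anxious, beside 8.83% of all genes, so a share of 1 in 7 is near the background.

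The members for making and clearing GABA had negative differences between more and less anxious mice and the receptor subunits positive ones. Slc6a11 had the largest, with a log2 fold change of -0.35 (SE 0.12) and an edgeR p of 0.0132, adjusted 0.414. Gad2 had -0.32 (SE 0.25), Abat -0.19 (SE 0.12), Slc32a1 -0.18 (SE 0.19) and Gad1 -0.10 (SE 0.14). Gabbr1 had 0.23 (SE 0.14) and Gabbr2 0.16 (SE 0.091). The adjusted p of the members other than Slc6a11 ran from 0.673 to 0.892 in the edgeR fit, and each of their differences was less than 2 SE. These sizes rest on single mice, although no sign changed with 1 mouse left out. Gad1 ran from -0.22 (without mouse 7) to -0.04 (without mouse 12), Gad2 from -0.47 (without mouse 7) to -0.19 (without mouse 9) and Slc32a1 from -0.28 (without mouse 6) to -0.05 (without mouse 10). Abat ran from -0.24 (without mouse 6) to -0.12 (without mouse 12), Gabbr1 from 0.13 (without mouse 7) to 0.34 (without mouse 12) and Gabbr2 from 0.10 (without mouse 12) to 0.26 (without mouse 7). The lowest unadjusted edgeR p among these fits was 0.0333 for Gad2, 0.0392 for Gabbr1 and 0.0315 for Gabbr2. Without mouse 7, the highest for Slc6a11, its log2 fold change was -0.25 with an edgeR p of 0.130.

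The other contrasts use the same mice and are given beside this one only to show its course. From less anxious to anxious, Slc32a1 had -0.34 (SE 0.19), Gad2 -0.18 (SE 0.24), Slc6a11 -0.16 (SE 0.12) and Abat -0.11 (SE 0.12) on the log2 scale. Gabbr2 had 0.14 (SE 0.091), Gabbr1 0.07 (SE 0.14) and Gad1 -0.0038 (SE 0.14). From anxious to more anxious, Slc6a11 had -0.19 (SE 0.11), Gad2 -0.14 (SE 0.22), Gabbr1 0.16 (SE 0.12) and Slc32a1 0.17 (SE 0.18). No member was called in either contrast by edgeR or DESeq2, and none had an unadjusted p under 0.05 in edgeR, beside 4.74% and 4.57% of all genes. The edgeR calls over all genes were 0.00371% in the first and 0.00% in the second, and the DESeq2 calls 0.0319% and 0.139%. All members overlapped between the groups in both, where 5.37% and 2.35% of genes with a mean of at least 1 CPM did not.

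**Figure D2:**
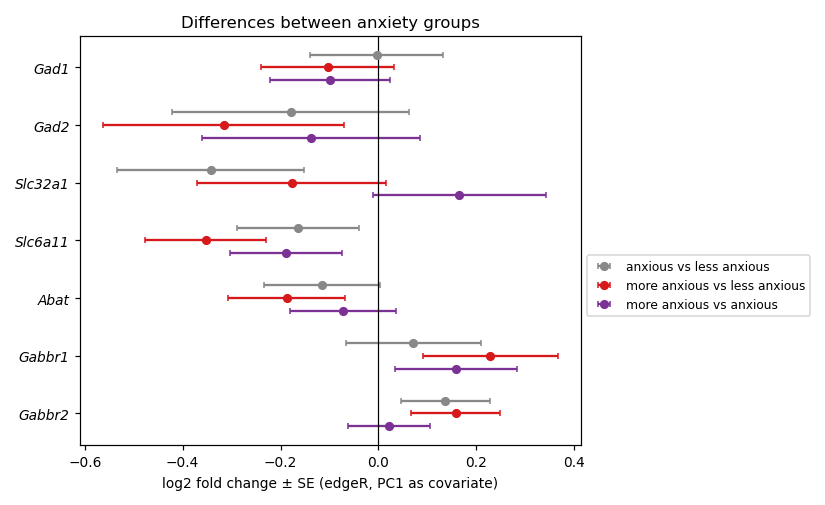
Log2 fold change of each member (points) with its SE (bars) in the contrasts between anxiety groups, from edgeR with PC1 as a covariate. Slc6a11 at -0.35 and Gad2 at -0.32 lie lowest for more against less anxious, and Gabbr1 at 0.23 and Gabbr2 at 0.16 lie above 0.

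Ratios within a library do not depend on the scaling between libraries. The Gad1 to Gad2 ratio in CPM was 1.50 ± 0.171 in less anxious, 1.82 ± 0.353 in anxious and 1.80 ± 0.147 in more anxious mice. By mouse it was 1.42, 1.70 and 1.39, then 1.34, 1.86, 2.20 and 1.88, then 1.61, 1.86, 1.96 and 1.78, so that mouse 1 among the anxious mice stood with less anxious mice 3 and 12. Its correlation with group order was 0.462, with a two-sided exact permutation p of 0.153 over 11550 arrangements and 0.458 after adjustment over the 3 ratios. Slc32a1 over the sum of Gad1 and Gad2 was 0.184 ± 0.0438, 0.157 ± 0.0117 and 0.190 ± 0.0241. Its correlation with group order was 0.164, with an exact permutation p of 0.620. The Gabbr1 to Gabbr2 ratio was 2.08 ± 0.406, 2.01 ± 0.305 and 2.20 ± 0.390. Its correlation with group order was 0.172, with an exact permutation p of 0.608. None of the ratios set the groups apart beyond the spread between mice.

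The behavior measures give a comparison that does not use the groups. Each slope is the change in log2 level for 1 SD of the measure over the mice, fitted for all genes in edgeR without PC1. For the share of distance traveled in the light side of the LD, Gad2 had a slope of 0.24 ± 0.065 (SE) with an edgeR p of 0.00214, adjusted 0.688. Gad1 had 0.14 ± 0.043 with an edgeR p of 0.00585, adjusted 0.818, and Abat 0.10 ± 0.046 with an edgeR p of 0.04997. These 3 of 7 members stood at an unadjusted p under 0.05, beside 5.80% of all genes. Their levels had Pearson correlations of 0.710 to 0.871 with each other over the same mice, so they are not 3 independent results. After adjustment neither a member nor any other gene was called (0.00%), while DESeq2 called 0.0637% of genes (22) and no member.

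The values behind the Gad2 slope were spread over the groups. The mice with the largest share of distance in the light were mouse 6 at 41.9%, mouse 3 at 37.8%, mouse 1 at 37.3% and mouse 12 at 34.5%, with Gad2 at 226, 230.0, 303 and 268 CPM. The next were mouse 11 at 29.2%, mouse 7 at 27.6% and mouse 4 at 26.4%, with Gad2 at 174, 195 and 171 CPM. The lowest were mouse 10 at 26.1%, mouse 8 at 25.0%, mouse 9 at 19.3% and mouse 2 at 16.6%, with Gad2 at 158, 158, 152.5 and 191 CPM. So the 4 mice with the largest share of distance in the light were also the 4 with the most Gad2. They came from all 3 groups. Below 30% Gad2 tended to be lower at smaller shares, except in mouse 2. That mouse had the smallest share, 16.6%, yet at 191 CPM it lay above all of these mice but mouse 7. Gad1 was highest in mice 6, 1 and 12 of those 4, yet mouse 3, at 327 CPM, lay below mice 7 and 8. With each mouse left out in turn the Gad2 slope stayed between 0.19 and 0.30 and the Gad1 slope between 0.10 and 0.16.

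**Figure D3:**
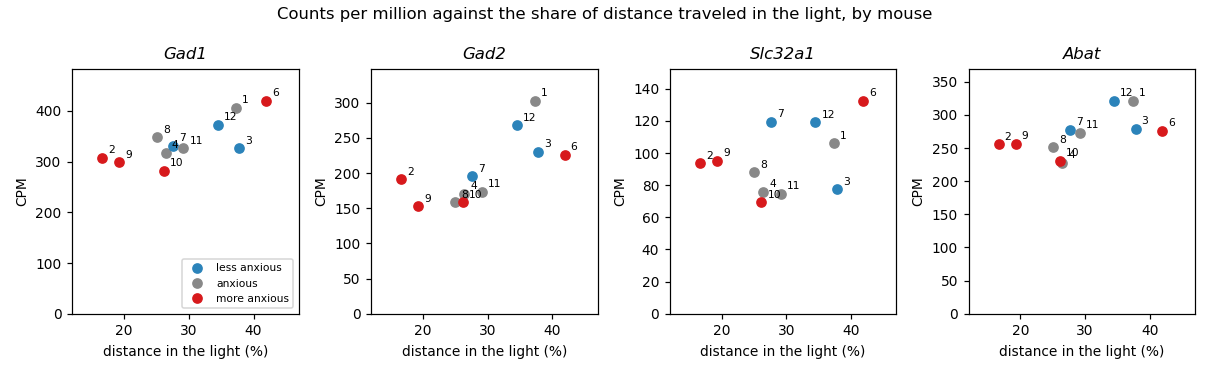
Level of Gad1, Gad2, Slc32a1 and Abat in CPM against the share of distance traveled in the light side of the light/dark box (%), 1 point per mouse with its number, colored by anxiety group. For Gad2 the 4 mice above 30% hold 226 to 303 CPM and the other 7 hold 152.5 to 195 CPM.

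Striatal-type and central amygdala markers were high in 3 of the same 4 mice. Their summed level was 1166 CPM in mouse 6, 756 CPM in mouse 3, 1059 CPM in mouse 1 and 1692 CPM in mouse 12, against 667 to 953 CPM in the other mice apart from mouse 7 at 1377 CPM. In the same fit 12 of the 13 markers had positive slopes on distance in the light, with a median of 0.23, and neither edgeR nor DESeq2 called any of them. All genes had a median slope of -0.0020, with 13282 of 26963 positive. Other lists had slopes of either sign on the same measure. Positive slopes were found in 8 of 8 oligodendrocyte markers (median 0.11), in 7 of 7 genes of further GABA transport and breakdown (0.086), in 6 of 16 interneuron markers (-0.046) and in 1 of 12 excitatory markers (-0.065). The part of tissue mix in the Gad1 and Gad2 slopes was not tested.

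Time in the light, from the same LD session, gave like slopes of 0.22 ± 0.075 for Gad2 (edgeR p of 0.00936) and 0.14 ± 0.044 for Gad1 (edgeR p of 0.00711), each with an adjusted p of 0.9997, beside 3.55% of genes at an unadjusted p under 0.05 and 0.00742% called (0.0145% in DESeq2). Without mouse 6 the Gad1 slope was 0.095 with an edgeR p of 0.0655. For open-arm time in the EPM, Slc32a1 had 0.15 ± 0.076, Gad1 0.10 ± 0.051 and Gad2 0.08 ± 0.094. For total entries in the EPM no member had a slope beyond 0.08 in size, and the open-arm and entry slopes all had an unadjusted edgeR p above 0.06, beside 5.84% and 6.97% of genes under 0.05. For these measures edgeR called 0.00% of genes each and DESeq2 0.125% and 0.110%, with no member among them.

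In the SIT, the measure was the box:zone ratio over 3, 5 and 10 min, a reading of time spent beside the stranger mouse whose exact parts the labels do not define. Over 3 min, for which mouse 4 has no value and was left out, Slc6a11 had a slope of -0.18 ± 0.050 with an edgeR p of 0.00315, adjusted 0.364. Slc32a1 had -0.19 ± 0.074 with an edgeR p of 0.0215, adjusted 0.543. That is 2 of 7 members beside 7.65% of all genes, and 0.0150% were called after adjustment (0.482% in DESeq2), no member among them. Both members come from the same libraries, so this is not a count of independent results. The ratio was lowest in mouse 7 at 0.236, the mouse with the most Slc6a11, and highest in mouse 9 at 1.84, the mouse with the least. Between these extremes the order was loose. Mouse 3, with a ratio of 1.70, had 153 CPM, and mouse 6, with a ratio of 0.797, had 149 CPM.

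Over longer windows the Slc6a11 slope was smaller, at -0.06 ± 0.063 for 5 min and -0.06 ± 0.063 for 10 min. Slc32a1 had -0.16 ± 0.081 and -0.17 ± 0.078, the latter with an edgeR p of 0.0418, adjusted 0.604, beside 8.05% of all genes. No member passed that mark over 5 min, beside 6.56% of genes. After adjustment edgeR called 0.0111% of genes over 5 min and 0.0223% over 10 min, DESeq2 0.125% and 0.322%, and no member was among them. Without mouse 7 the 3-min slope of Slc6a11 was -0.13 with an edgeR p of 0.0391. The lowest adjusted p of any member in any fit was 0.0748, for this slope in DESeq2. Gabbr1 had -0.11 ± 0.063 over 10 min and Gabbr2 -0.06 ± 0.042, and both receptor subunits had slopes within 0.08 in size on the LD and EPM measures. With each mouse left out in turn, however, the Gabbr1 slope ran from -0.16 to 0.060 on time in the light. On distance in the light it ran from -0.13 to 0.033. The lowest unadjusted edgeR p among these Gabbr1 fits was 0.00435 for time and 0.0287 for distance. The small Gabbr1 slopes on the LD measures thus depended on single mice.

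**Figure D4:**
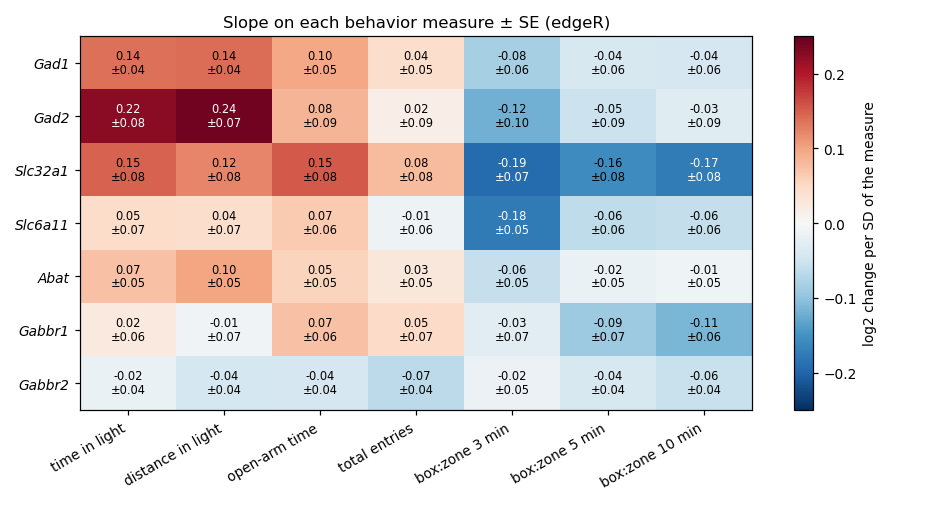
Slope of log2 level per SD of each of 7 behavior measures (columns) for the 7 members (rows), with the SE under each value, from edgeR over 11 mice (10 for the 3-min ratio). The strongest colors are Gad2 on distance and time in the light at 0.24 and 0.22, and Slc32a1 and Slc6a11 on the 3-min ratio at -0.19 and -0.18.

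How alike the members' patterns were is described by the Pearson correlation r of log2 CPM over the same 11 libraries, which share tissue mix and scaling. Gad2 and Abat were the closest pair at 0.871, so that Abat ranked 18 of 15890 genes for likeness to Gad2. Gad1 had 0.758 with Gad2, 0.718 with Slc32a1 and 0.710 with Abat. The receptor subunits were less like each other and the rest, with 0.234 between Gabbr1 and Gabbr2, -0.355 between Gad2 and Gabbr2 and -0.464 between Abat and Gabbr2. Gabbr1 had 0.406 with Slc32a1 and 0.235 with Gad1, and -0.311 to -0.148 with Slc6a11, Gad2 and Abat. Gabbr2 had -0.081 to 0.057 with Gad1, Slc32a1 and Slc6a11.

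Outside the members, the genes most like Gad2 were Fam196b at 0.974, Zfhx3 at 0.945 and Gabrg3, a GABA-A receptor subunit, at 0.922. Slc32a1 was closest to Cacng4 at 0.950, Penk at 0.898 and Tanc2 at 0.897, where Penk encodes the enkephalin precursor and is in the striatal-type list. Gad1 had Haus8 at 0.872, Gm13002 at 0.856 and 4930512B01Rik at 0.851. Slc6a11 had Vps13d at 0.963, Ston2 at 0.934 and Agap1 at 0.916, and Abat had Trim66 at 0.934, Tunar at 0.925 and Glra3 at 0.913. Gabbr1 had Pbld2 at 0.940, Leng8 at 0.873 and Pemt at 0.862, and Gabbr2 had Spred2 at 0.946, Maz at 0.939 and Rpain at 0.932. Each gene was picked as among the highest of 15890 over 11 libraries, and these values carry no test. By Spearman correlation, which uses ranks, Pemt had 0.655 (rank 447) with Gabbr1 and Rpain 0.745 (rank 158) with Gabbr2. Mean levels were only 1.88 CPM for Gm13002, 1.13 CPM for 4930512B01Rik and 1.86 CPM for Pemt.

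Other genes of the pathway and markers of cell types were taken from lists. In these edgeR called no gene in any comparison, while DESeq2, the tool of the study, called some, most of which are given below. Over all 26963 genes the differences between more and less anxious mice were balanced, with 13619 positive, 13344 negative and a median of 0.0037 (log2). For this contrast 8.83% of all genes stood at an unadjusted edgeR p under 0.05, and DESeq2 called 0.881%. For any difference among the groups DESeq2 called 0.539%. The counts in the lists below are to be read beside these shares. Of the genes for further GABA transport and breakdown, 7 of 7 had negative differences, with a median of -0.18, and 1 had an unadjusted edgeR p under 0.05. DESeq2 called none of them between the groups and 1 on total entries, Slc6a12, whose mean was 2.61 CPM. Aldh5a1, which completes the breakdown that Abat starts, had -0.28 (SE 0.094), at 93.9 CPM in less and 76.8 CPM in more anxious mice.

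Glutamate and glutamine supply gave 10 of 10 negative differences, with a median of -0.21 and 3 at an unadjusted edgeR p under 0.05. Slc1a3, a glutamate transporter of astrocytes, had -0.50 (SE 0.12), at 668 and 473 CPM, with an edgeR p of 0.000774 that missed the threshold after adjustment. DESeq2 called it, with an adjusted p of 0.00865 for this contrast and 0.0345 for any difference among the groups. Glud1, glutamate dehydrogenase, had -0.38 (SE 0.096), at 254 and 193 CPM, and a DESeq2 adjusted p of 0.0190. Like these genes and Slc6a11, 12 of 12 astrocyte markers had negative differences, with a median of -0.25 and 3 at an unadjusted edgeR p under 0.05. DESeq2 called 2 of them, Slc1a3 and Slco1c1. Their summed level was 3873 to 4618 CPM in less anxious mice against 3303 to 4080 CPM in anxious and 3308 to 3820 CPM in more anxious mice. The lists share Slc1a3 and Slc1a2, and the part of astrocyte content in the Slc6a11 difference was not tested.

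On the receptor side, 7 of 16 auxiliary subunits and effectors had positive differences and 9 negative ones, with a median of -0.0084 and 3 at an unadjusted edgeR p under 0.05. Rgs7, which speeds the end of G-protein signals, had 0.47 (SE 0.11), at 78.4 CPM in less and 103 CPM in more anxious mice. It was called by DESeq2 alone, with an adjusted p of 0.00851 for this contrast and 0.0281 for any difference among the groups. On the 10-min ratio DESeq2 called Cacna1b, a subunit of the N-type calcium channel, with a slope of -0.18 (adjusted p of 0.0348). That ratio was highest in mouse 3, and DESeq2 was not run without this mouse. Gng2, a G-protein gamma subunit, had 0.23 (SE 0.100), at 209.5 and 254 CPM. Of the KCTD proteins that bind the receptor, Kctd12 had 0.17 (SE 0.12) at a mean of 74.0 CPM, while Kctd8, Kctd12b and Kctd16 each had a mean under 10 CPM.

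Transcription factors of GABAergic neurons gave 6 positive and 7 negative differences, with a median of -0.11 and 3 at an unadjusted edgeR p under 0.05. Dlx2 had 0.60 (SE 0.17), at 4.70 and 7.61 CPM, with a DESeq2 adjusted p of 0.0458, and Dlx6os1, a long noncoding RNA, had -0.38 (SE 0.13), at 18.3 and 13.6 CPM. Interneuron markers were split into 7 positive and 9 negative, with a median of -0.0059 and none at an unadjusted edgeR p under 0.05. Reln, with 0.37 (SE 0.17), and Tac1, with -0.60 (SE 0.29), had the lowest p. In the SIT, DESeq2 called Dlx5 (slopes of -0.29 over 5 min and -0.31 over 10 min) and Vip, a peptide of interneurons (0.21 and 0.22). In edgeR only 6 of 16 interneuron markers had positive slopes on the 10-min ratio, with a median of -0.0080. Of the transcription factors 2 of 13 did, with a median of -0.18. DESeq2 was not run without mouse 3, which had the highest ratio over both windows. Striatal-type and central amygdala markers were negative in 13 of 13, with a median of -0.53 and 2 at an unadjusted edgeR p under 0.05. These were Gng7, with -0.43 (SE 0.13), and Rasd2, with -0.40 (SE 0.18). The summed level was 1377 and 1692 CPM in less anxious mice 7 and 12 but 756 CPM in less anxious mouse 3. The more anxious mice had 719 to 1166 CPM. Markers of a list come from the same libraries, so a count of signs is not a count of independent results.

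Excitatory neuron markers went the other way in 8 of 12, with a median of 0.36. At an unadjusted edgeR p under 0.05 stood 6 of the 12, beside 8.83% of all genes. Nrgn had 0.86 (SE 0.17), at 582 and 1079 CPM, and Neurod2 0.65 (SE 0.16), with edgeR adjusted p of 0.116 and 0.201 and DESeq2 adjusted p of 0.000635 and 0.0155. Endothelial markers were negative in 8 of 8, with a median of -0.53 and 5 at an unadjusted edgeR p under 0.05. They were led by Slco1a4 at -0.54 (SE 0.13) and Adgrl4 at -1.07 (SE 0.27), both called by DESeq2 with adjusted p of 0.0227 and 0.0118. DESeq2 also called the astrocyte marker Slco1c1 at -0.42 (SE 0.11), with an adjusted p of 0.0379. Microglia markers were negative in 8 of 8 with a median of -0.18, as with Cx3cr1 at -0.26 (SE 0.11). Oligodendrocyte markers were negative in 7 of 8 with a median of -0.09, as with Mog at -0.17 (SE 0.22). In each of these lists 1 marker had an unadjusted edgeR p under 0.05. Choroid plexus markers, at 9.93 to 24.7 CPM in sum, were negative in 6 of 7, with 2 at an unadjusted edgeR p under 0.05. These were Kcnj13 at -3.26 (SE 0.77), called by DESeq2, and Clic6 at -0.77 (SE 0.32). Of the pituitary markers 4 of 6 were negative, and none had an unadjusted edgeR p under 0.05. Prl had -4.09 (SE 1.85) and Gh -3.76 (SE 1.71), both near 1 CPM in less anxious mice. Their means were 0.070 and 0.081 CPM in more anxious mice. In anxious mice they were 9.86 ± 14.9 and 5.97 ± 9.39 CPM. DESeq2 called both for any difference among the groups and for more anxious against anxious, but neither for more against less anxious. Most of the lists for glia, vessels and striatal-type neurons had differences of the same sign as Slc6a11, Abat and Gad2, and their part in those differences was not tested.

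**Figure D5:**
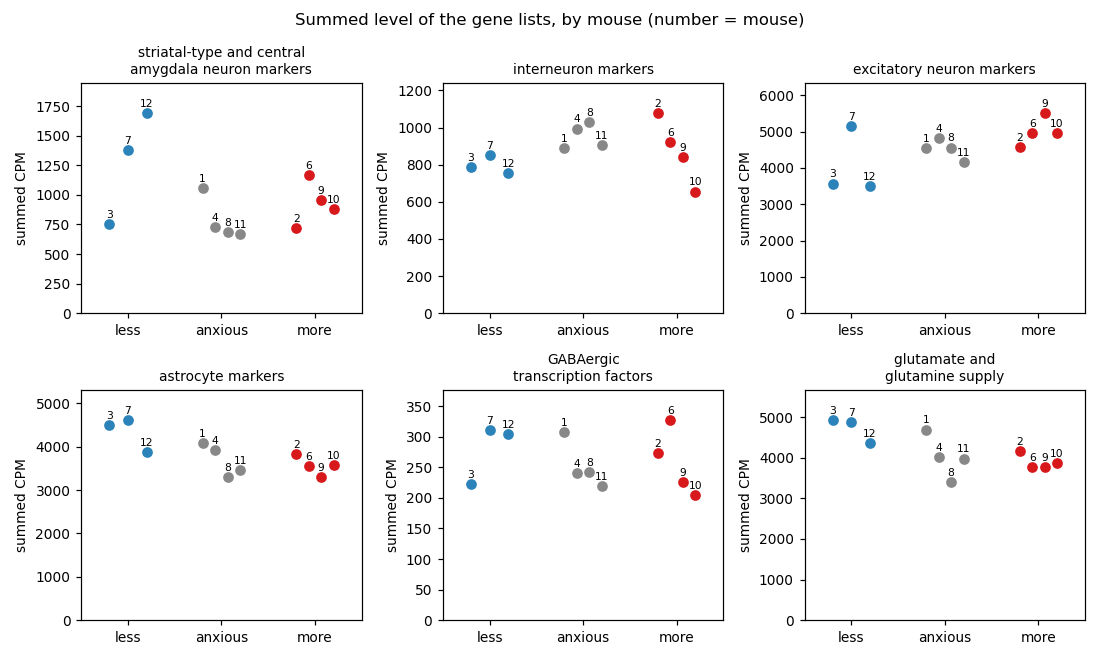
Summed level in CPM of 6 of the gene lists, for neuron types, astrocytes, GABAergic transcription factors and glutamate supply, in each of the 11 mice (points), by anxiety group. Striatal-type and central amygdala markers reach 1692 CPM in mouse 12 and 1377 CPM in mouse 7, and astrocyte markers reach 4618 CPM in mouse 7.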

How the data were processed

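Stranded libraries, 1 per mouse, were made from amygdala mRNA of 12 female C57/BL6 mice and sequenced in a single NextSeq500 run with single-end reads of 75 bases. The authors deposited estimated counts per gene (expected counts, whole numbers, without normalization) for 47729 genes. Per the study's methods, reads were trimmed with cutadapt where needed, aligned to mm10 with STAR for quality checks, quantified with Salmon and summed to genes with tximport. The submitters' processing notes name CASAVA, Salmon and DESeq2. Tool versions, the annotation release and the use of strand in counting are not given in the sources used here. Because Salmon shares out reads between transcripts that both match, counts of overlapping genes are less certain. GENCODE M21 (GRCm38) held 47310 of the identifiers (99.1%) and gave symbols, coordinates and exon lengths.

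Groups and behavior came from the sample labels (3 less anxious, 4 anxious and 4 more anxious mice). The labels give 1 sample per mouse, so p-values measure the spread between mice. Mouse 5, the outlier that the study left out, has no group (32682574 estimated counts, against a median of 36578626 in the others). Genes with at least 10 reads in total were tested over all 26963 genes with edgeR's quasi-likelihood test (robust, TMM), with PC1 of a principal component analysis made here as a covariate for the groups, and with each behavior measure, standardized, in a fit of its own. Calls needed a Benjamini-Hochberg adjusted p under 0.05. Likeness used log2 CPM with a prior count of 2 and genes with a mean of at least 1 CPM. The correlation of each log2 ratio with group order was tested with exact permutations, two-sided. The alternatives were DESeq2 size factors, no count filter, no robust option, DESeq2, no PC1 or PC1 added, group order as a number, ranks, mouse 5 included, Spearman correlation, another length and each mouse left out. Procedures were tested on simulated data.

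The genes named are the 7 members, the 3 genes most like each, and of each list the genes called or else the 2 with the smallest p and a mean of at least 1 CPM. Slc1a2, Prkcd, Rspo2, Slc6a12, Cacna1b, Dlx5, Vip, Kctd8, Kctd12, Kctd12b and Kctd16 are named outside this rule, after their values were seen. Some genes that the rule selects are not reported here. Members and lists were chosen with earlier results of these data known. The tests ran in edgeR 4.0.16 and DESeq2 1.42.0 under R 4.3.3. Summaries ran in pandas 2.3.3, scipy 1.17.1 and numpy 2.4.6 under Python 3.11.15, and plots in matplotlib 3.10.9. Promoter windows came from a RefSeq table on GRCm38.p6. Protein sequences were not used here.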

Additional observations from a re-analysis of the deposited data

Results flagged for a closer look

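Gad2 in mouse 1 stood apart from the other anxious mice, at 303 CPM against 158 to 174 CPM in mice 4, 8 and 11. The gap was 0.895 of the range of the 4 values, above Dixon's 95% critical value of 0.829. Over the 20 sets of values examined this was 1 flag, and chance flags about 1 in 20. Mouse 1 also had the most Gad1 of the anxious mice, at 407 CPM, and Abat at 321 CPM, and its summed striatal-type and central amygdala markers, 1059 CPM, were the highest of that group. Without mouse 1 the Gad2 slope on distance in the light was 0.19 with an edgeR quasi-likelihood p of 0.00854.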

How the results depend on the processing

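With 3 or 4 mice per group and adjustment over 26963 genes, only large or very even differences could be called. No member was called in any of the fits. In more against less anxious mice no member changed sign in any alternative, and of 78 member values over all comparisons, 56 never did. Mouse numbers are unique to a mouse, so no paired analysis was possible because the groups share no pairing. The cause of the sign changes was not tested.

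Other sign changes were an overlap of Abat of -0.154 CPM (DESeq2 size factors, chosen after seeing the data), Gad1 at 0.025 for anxious against less anxious (no PC1), Gabbr1 slopes of -0.0024 (PC1 added) and -0.025 (ranks) on time and 0.010 (mouse 5 included) on distance in the light, Slc6a11 at 0.017 on entries (ranks), and Gabbr1 at 0.065 and Gabbr2 at 0.032 on the 3-min ratio (PC1 added).

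With each mouse left out in turn, sign-changing ranges for anxious against less anxious were -0.13 to 0.063 (Gad1) and -0.039 to 0.18 (Gabbr1). For more anxious against anxious they were -0.24 to 0.011 (Gad1), -0.31 to 0.13 (Gad2), -0.14 to 0.031 (Abat) and -0.011 to 0.060 (Gabbr2). Slopes on time in the light spanned -0.00068 to 0.11 (Slc6a11), -0.16 to 0.060 (Gabbr1) and -0.049 to 0.0025 (Gabbr2), and on distance -0.13 to 0.033 (Gabbr1). Open-arm time gave -0.0034 to 0.11 (Gabbr1). Entries gave -0.073 to 0.12 (Gad2), -0.034 to 0.024 (Slc6a11), -0.021 to 0.072 (Abat) and -0.0019 to 0.088 (Gabbr1). Ratios over 3 min gave -0.10 to 0.029 (Gabbr1) and -0.044 to 0.016 (Gabbr2), over 5 min -0.041 to 0.012 (Abat) and -0.071 to 0.010 (Gabbr2), and over 10 min -0.16 to 0.0078 (Gad2) and -0.041 to 0.015 (Abat). Correlations with group order spanned -0.0458 to 0.523 for Slc32a1 over Gad1 plus Gad2 (negative without mouse 3), -0.0330 to 0.438 for Gabbr1 to Gabbr2 (negative without mouse 6) and 0.336 to 0.569 for Gad1 to Gad2.

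Over all genes, edgeR called 2 for the groups and DESeq2 186, 22 as a number and 9 without the count filter. For more against less anxious edgeR called 12, DESeq2 304, and edgeR 25 without the filter, 3 without PC1 and 2 without the robust option. For distance and time in the light DESeq2 called 22 and 5 against 0 and 2, and for the 3-min ratio 165 against 4.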

Other observations

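Mouse 5, which has no group, was scaled together with the other 11 mice. Its Gad1 level was 257 CPM, below the 282 to 421 CPM of the others, and its Slc32a1 level was 67.2 CPM, below their 69.3 to 133 CPM. Gad2 at 213 CPM, Slc6a11 at 143 CPM, Abat at 275 CPM, Gabbr1 at 606 CPM and Gabbr2 at 312 CPM lay within the ranges of the others.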
